A study of Mus musculus with 48 samples.

Results

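CD8+ T cells lacking Yap were compared between the tumor and its draining lymph node. The 8 libraries were chosen by their titles as all CD8 libraries of Yap-cKO mice, 4 from tumor-infiltrating lymphocytes (TILs) and 4 from tumor-draining lymph nodes (TDLNs), out of 48 libraries in the study. The study sorted 3 populations from either tissue, namely T cells positive for CD4, T cells positive for CD8 and CD45+ CD4-CD8- cells. Their RNA was sequenced in both genotypes, Yap-cKO and wild type (WT), giving 12 groups of 4 libraries. According to the study's methods, controls were littermates. Yap-cKO mice carried floxed Yap alleles, an EYFP reporter behind a floxed stop and the CD4-Cre transgene on the C57BL/6J background, and were 6 to 10 weeks old. The Cd4 promoter of the transgene is active in thymocytes that express both CD4 and CD8, so that the deletion is carried by CD4+ and CD8+ T cells alike while tumor, stromal and myeloid cells keep Yap. All mice bore subcutaneous tumors of B16F10, an established mouse melanoma line of C57BL/6 origin, and the node was the draining inguinal node. TILs and TDLN cells were sorted live as CD8+ T cells from dissociated tissue. The labels do not tie a tumor library to a node library of the same mouse, and p-values measure the spread between these 4 libraries per group.

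Naive CD8+ T cells circulate through lymph nodes under the control of Ccr7, the receptor for chemokines of the T cell zone, and S1pr1, which lets cells leave the node, and they are kept in a resting state by transcription factors that include Tcf7, Lef1 and Foxo1. After priming, these genes are turned down, the cells divide, and effector cells make granzymes and perforin, which kill target cells, together with interferon gamma and inflammatory chemokines. In tumors, prolonged stimulation through the T cell receptor is known to give cells that carry inhibitory receptors such as PD-1 (Pdcd1), TIM-3 (Havcr2) and LAG-3 and that express the factor Tox. Yap is the transcriptional coactivator at the end of the Hippo kinase cascade and works with the TEAD factors.

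Counts assigned to genes ranged from 14566898 to 19804040 per library. Levels are given as normalized CPM, that is, CPM computed after scaling by TMM, and 3 counts corresponded to 0.144 to 0.191 normalized CPM. This TMM was taken over 32 libraries, all Yap-cKO libraries and the CD8 libraries of WT mice. Fold changes and their tests used TMM over the libraries of each fit only, so levels and fold changes can differ slightly. For TDLN library 3 the factor was 1.192 over 32 libraries and 1.048 over 8. The first principal component of log2 levels, with 60.1% of the variance, separated every TIL library (23.1 to 77.1) from every TDLN library (-74.8 to -42.5). TIL library 1 stood apart from the other TIL libraries on this component (23.1 against 68.0 to 77.1). TDLN library 3 had 14610 genes with at least 10 counts against 12239 to 12332 in the other TDLN libraries, and in it, as in TIL library 1, the deviation from the mean of the tissue rose with transcript length (Spearman's rho 0.30 and 0.32 across genes, which are not independent replicates). Counts of changed genes, over all tested genes and over some lists, are therefore also given below without these 2 libraries, a choice made after the data were seen.

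The sorted cells carried the markers of CD8+ T cells in both tissues. Cd8a, which encodes the alpha chain of the CD8 coreceptor, was measured at 1201, 1029, 709 and 885 normalized CPM in TDLN libraries 1 to 4 and at 646, 936, 645 and 686 in TIL libraries 1 to 4. The groups overlapped, and the difference was not past the threshold (log2 fold change -0.36 ± 0.22 (SE), adjusted p = 0.282). Cd3e, a subunit of the T cell receptor complex, was at 797 to 1412 in TDLNs and 630 to 1007 in TILs, and Trac, the constant part of the receptor alpha chain, at 773 to 1102 and 836 to 898. Cd4 was at 2.21 to 5.44 in TDLNs and 2.77 to 5.5 in TILs, and Foxp3, the factor of regulatory T cells, was at 3.41, 1.02, 1.01 and 1.85 in TDLN libraries and 14.6, 13.2, 0.404 and 2.47 in TIL libraries. Of the 20 tested genes of T cell identity and receptor signaling, none was called higher in TILs. Called lower were 2, Cd6 and Bcl11b (10%, against 5.01% of all tested genes), and the median log2 difference was -0.47. With library scaling by 15 T-lineage genes the median was 0.04, and neither Cd6 nor Bcl11b was then called. These 15 genes are themselves members of the list, so a median near 0 followed largely from that scaling. The direction of the median thus depended on the scaling, and the value of 0.04 is no independent result. Yap1 itself was low throughout, at 1.82, 1.08, 4.45 and 1.48 in TDLN libraries and 2.28, 4.09, 6.47 and 4.57 in TIL libraries. These groups overlapped and the difference was not past the threshold (log2 fold change 0.96 ± 0.54 (SE), adjusted p = 0.239), the highest value of each tissue coming from library 3. Without TIL library 1 and TDLN library 3 it was called higher in TILs (log2 fold change 1.77, adjusted p = 0.0137). From the highest to the lowest value, the TIL libraries ran 3, 4, 2 and 1 for Yap1 as for the sum of melanoma genes, whose part in this difference was not tested. Sorted CD8 libraries of WT mice held 2.15 to 2.52 of Yap1 in TDLNs and 13.1 to 26.9 in TILs. These WT TIL libraries had melanoma sums of 4647 to 17531 and endothelial sums of 177 to 2629, above all Yap-cKO CD8 TIL libraries. The part of such RNA in their Yap1 level was not tested. Yap1 counts were summed over whole transcripts, so they cannot separate a deleted allele from an intact one.

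Genes of other cell types were detected in both tissues, and the sums of most such lists differed between tissues. The summed level of 12 macrophage and monocyte genes was 40.7, 35.3, 47.1 and 48.2 normalized CPM in TDLN libraries 1 to 4 and 1110, 2537, 2827 and 1401 in TIL libraries 1 to 4. All 4 TIL libraries lay above all TDLN libraries (two-sided exact permutation p = 0.0286, which is the lowest value 4 against 4 libraries allow), and CD45+ CD4-CD8- TILs of the same genotype held 23855 to 36141. The sum of 12 melanoma genes was 23.3, 16.3, 27.1 and 22.9 in TDLN libraries and 83.6, 680, 3156 and 1553 in TIL libraries (exact permutation p = 0.0286). TIL library 1 was lowest and TIL library 3 highest, and CD8 TILs of WT mice held 4647 to 17531. B cell genes went the other way, with sums of 755, 836, 575 and 506 in TDLNs and 208, 287, 323 and 254 in TILs (exact permutation p = 0.0286). Dendritic cell genes summed to 13.4 to 29.5 in TDLNs and 70.8 to 98.1 in TILs, neutrophil genes to 3.4 to 6.46 and 7.16 to 143, and genes of CD4 and regulatory T cells to 129 to 187 and 205 to 435 (exact permutation p = 0.0286, 0.0286 and 0.0286). Cd4 and Foxp3 themselves overlapped between tissues, and Yap-cKO CD4 TILs held 1603 to 3548 for the CD4 and regulatory list. Which cells gave the change in that sum was not tested. Endothelial genes summed to 103 to 144 and 68.1 to 98.2, mostly Pecam1, which T cells also express, while fibroblast and pericyte genes did not differ beyond their spread (exact permutation p = 0.0286 and 0.771). Without TMM the exact permutation p of the endothelial sum was 0.114. All 12 tested macrophage genes were called higher, with a median log2 difference of 6.62, or 6.03 with genes at the floor of 3 counts set to their bound. Called higher were also 10 of 11 melanoma, 5 of 9 dendritic cell, 1 of 3 neutrophil and 2 of 6 endothelial genes. So were 2 of 6 fibroblast, 3 of 7 CD4 and regulatory T cell and 7 of 8 NK cell genes. Lower calls were made for 8 of 11 B cell genes. Of all tested genes, 10.9% were called higher and 5.01% lower. Defining markers of several types were low in the sorted cells: Cdh5 of endothelium was at 0.0 to 0.17 in TDLNs and 0.167 to 1.57 in TILs, Pdgfra and Lum of fibroblasts stayed at or below 1.29, Ly6g of neutrophils at or below 0.222, and Clec9a of dendritic cells at or below 0.657. In bulk libraries, fewer cells of a type and less RNA per cell cannot be told apart.

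**Figure D1:**
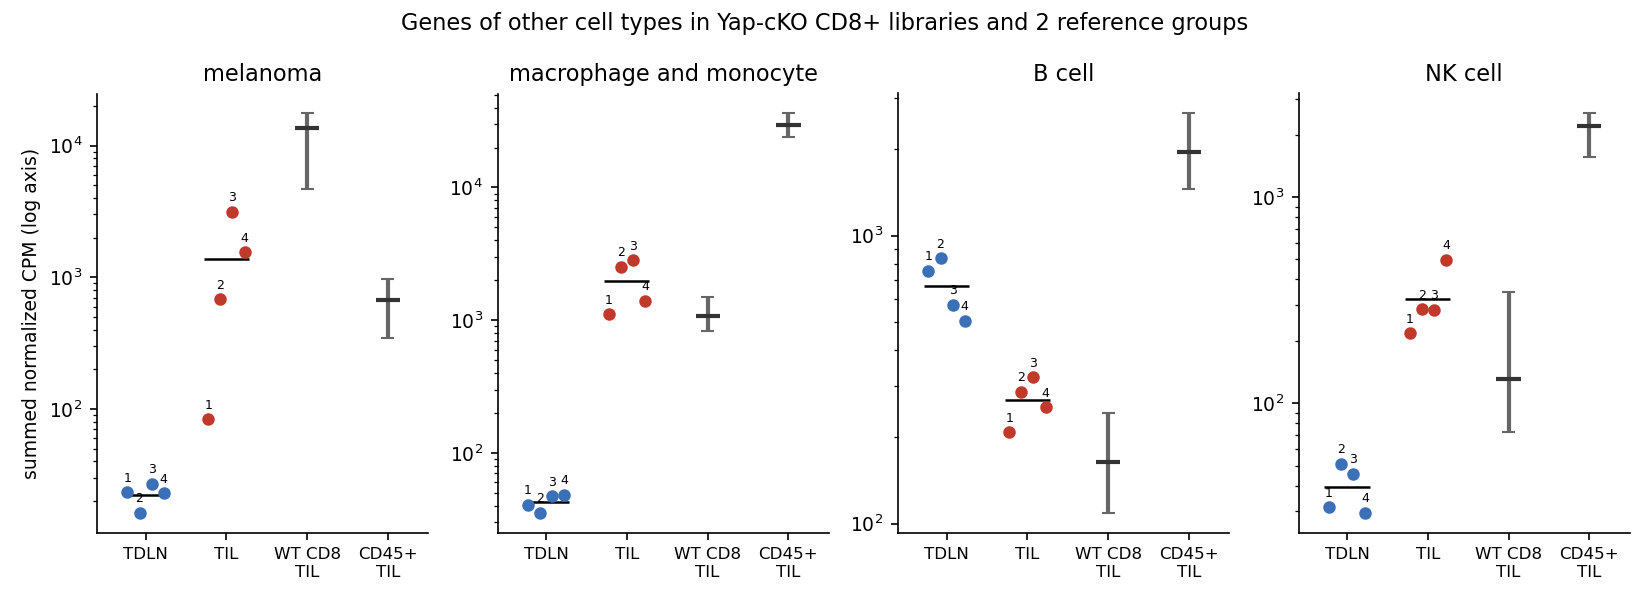
Summed normalized CPM (log axis) of 4 gene lists of other cell types in each Yap-cKO CD8 library (points; horizontal bar, mean of 4 libraries) beside the lowest, median and highest sum in WT CD8 TILs and in Yap-cKO CD45+ CD4-CD8- TILs (vertical lines with a tick at the median). Macrophage sums of 1110 to 2827 in TILs lie above all TDLN values and below the 23855 to 36141 of CD45+ TILs, and melanoma sums of 83.6 to 3156 lie below the 4647 to 17531 of WT CD8 TILs.

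The comparison of tumor with node asked which genes differ between the tissues in Yap-deleted CD8+ T cells. Of 13341 genes tested with edgeR, 1456 (10.9%) were called higher and 668 (5.01%) lower in TILs, 2124 (15.9%) in all, where a call required an adjusted p below 0.05 together with a log2 fold change beyond 1 in either direction. The groups of 4 libraries did not overlap for 1738 genes that were higher (13.0%) and 1342 that were lower (10.1%). The median log2 fold change of all tested genes was 0.02. Without TIL library 1 and TDLN library 3, 1452 genes were called higher and 1260 lower of 12319. The filter of 10 counts in 4 libraries was kept, and genes that reached 10 counts in 1 tissue only could not pass it there. Tested melanoma genes thereby fell from 11 to 5 and macrophage genes from 12 to 9, so the shares of higher and lower calls are not directly comparable. Replacing TMM by scaling to T-lineage genes moved the median of all genes by 0.45 and gave 2382 higher and 180 lower calls, 93.0% higher against 68.5% with TMM. Leaving out TIL library 2 gave 830 higher and 321 lower calls, leaving out TIL library 3 gave 913 and 511, and leaving out TIL library 4 gave 963 and 397. Of the 1456 genes called higher, 828 had a larger mean level in CD45+ CD4-CD8- TILs than in the CD8 TILs themselves and 628 a smaller one. Of the 668 called lower, 513 had a larger mean level in CD8 TDLN cells than in CD45+ CD4-CD8- cells of the node.

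The largest increases among well-expressed protein-coding genes were mostly of genes known from myeloid and melanoma cells. Ccl7, a monocyte chemokine, had at most 3 counts in any TDLN library and 43.2, 115, 127 and 49.6 normalized CPM in TIL libraries 1 to 4, at least 486-fold higher when 3 counts are taken as the floor. The same bound was 362-fold for Gm49339, 507-fold for the platelet and macrophage chemokine Pf4, 184-fold for the complement receptor C5ar1, 387-fold for the melanosome transporter Slc45a2 and 257-fold for Ptgds, a prostaglandin synthase. Ccl6, a chemokine of macrophages, was at 153, 367, 338 and 183 in TIL libraries and had at most 3 counts in each TDLN library (at least 1507-fold), and Retnla, a product of alternatively activated macrophages, was at 253, 102, 153 and 1.62 in TIL libraries and also had at most 3 counts in each TDLN library (at least 739-fold). Tyrp1, an enzyme of melanin synthesis, was at 4.33 to 768 in TILs, and Spp1, which encodes osteopontin, at 102 to 317, against at most 0.287 and 0.568 in TDLNs. Mean levels in CD45+ TILs were 1025 for Ccl7, 3283 for Ccl6 and 2147 for Spp1, above every CD8 TIL library. Among the 10 genes with the largest decrease were the trafficking receptors Ccr7, Ccr9 and the integrin Itgae, the naive cell gene Igfbp4, Rgcc, the heat shock gene Dnajb1 and the enzyme gene Ggt1. The other 3, Fcmr, Cd79a and Pou2af1, are B cell genes. Rgcc, a regulator of the cell cycle, was at 747, 341, 318 and 487 in TDLN libraries and 101, 28.8, 44.4 and 44.6 in TIL libraries (log2 fold change -3.08 ± 0.41 (SE), adjusted p = 0.000603).

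Cytotoxic effector genes were among the clearest differences. Gzmb, which encodes the protease granzyme B of cytotoxic granules, was measured at 11.4, 3.37, 3.73 and 5.62 normalized CPM in TDLN libraries 1 to 4 and at 324, 270, 265 and 287 in TIL libraries 1 to 4. Every TIL library was above every TDLN library, with a log2 fold change of 5.61 ± 0.39 (SE, adjusted p = 1.97e-05). The sequence before its start site is shown because the known promoter of this gene is read by AP-1 and RUNX factors, which act in activated CD8+ T cells. The 250 bases upstream of the RefSeq start of Gzmb (GRCm38.p6, chr14:56262335-56262584, minus strand, overlapping no annotated gene) are printed 5′ to 3′, with matches to TGANTCA (AP-1) and TGTGGTT (RUNX), searched on both strands, in capitals.
Gzmb: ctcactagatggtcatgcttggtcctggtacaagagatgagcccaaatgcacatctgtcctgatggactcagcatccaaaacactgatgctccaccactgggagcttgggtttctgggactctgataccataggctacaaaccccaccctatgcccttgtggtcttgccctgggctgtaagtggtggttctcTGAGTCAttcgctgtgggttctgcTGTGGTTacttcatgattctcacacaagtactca
The AP-1 match began 58 bases and the RUNX match 34 bases before the start. Windows of this length held TGANTCA in 6.87% and TGTGGTT in 4.46% of 27025 RefSeq genes, and in 4.34% and 3.34% of 9926 tested genes. They were found in 3 and 5 of the 30 tested genes of cytotoxic effectors and effector cytokines with a listed promoter.

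Of 14 tested genes of cytotoxic granules and killing, 8 were called higher (57.1%, against 10.9% of all tested genes), none lower, and the median log2 difference was 1.71 against 0.02 over all tested genes. The mean in CD8 TILs was above that in CD45+ TILs for 5 of the 8. Gzmk was at 2.61, 0.955, 0.718 and 1.54 in TDLN libraries and 121, 117, 306 and 201 in TIL libraries, without overlap (log2 fold change 7.04 ± 0.50 (SE), adjusted p = 1.97e-05). Its mean in CD45+ TILs was 0.906, below every CD8 TIL library. Gzma was at 1.02, 1.78, 1.77 and 2.04 in TDLN libraries and 95, 52.1, 57.7 and 343 in TIL libraries, where TIL library 4 was highest (log2 fold change 6.36 ± 0.68 (SE), adjusted p = 0.000181). Fasl, the ligand that triggers the death receptor Fas, was at 10.8, 25.5, 18.2 and 12 in TDLN libraries and 200, 174, 159 and 135 in TIL libraries, again without overlap (log2 fold change 3.33 ± 0.33 (SE), adjusted p = 0.000107). Gzmc, Serpinb6b, Serpinb9, which protects the killer cell from its own granzyme B, and Nkg7, a granule protein, were also higher (log2 fold changes 5.06, 2.25, 2.14 and 1.27). Prf1, which encodes perforin, did not pass the test: it was at 114, 104, 70.5 and 144 in TDLN libraries and 70.8, 343, 121 and 126 in TIL libraries (log2 fold change 0.65 ± 0.43 (SE), adjusted p = 0.318). TIL library 2 held the highest value, the other 3 overlapping the node.

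**Figure D2:**
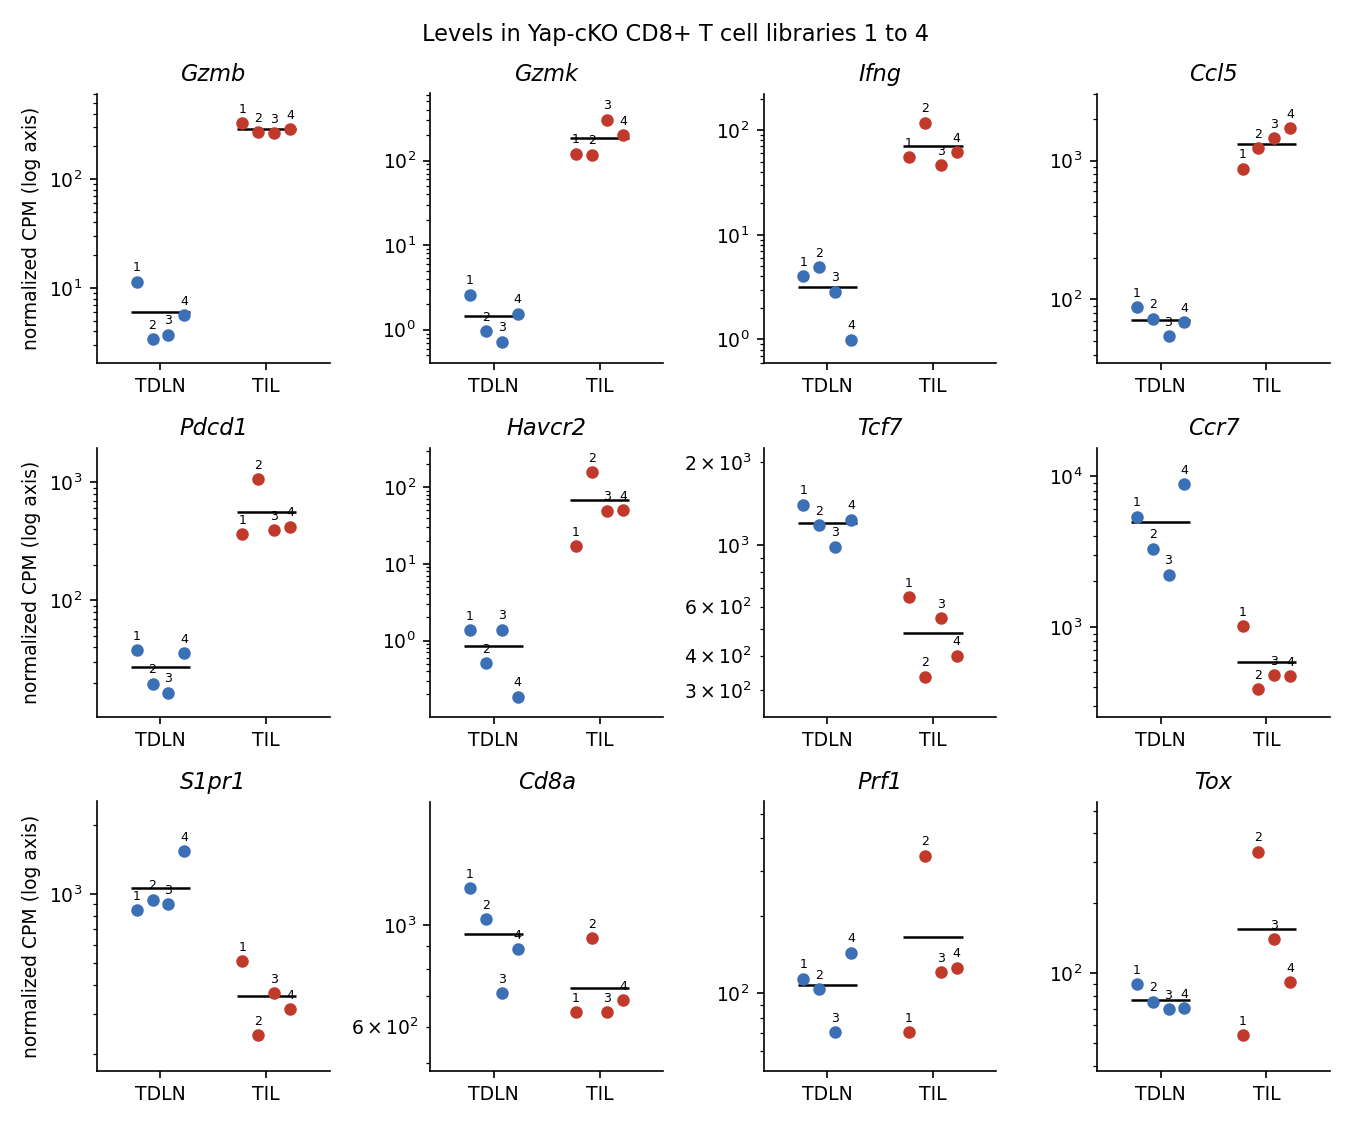
Normalized CPM (log axis) of 12 genes in each of the 4 TDLN and 4 TIL libraries of Yap-cKO CD8+ T cells (points marked by library number; horizontal bar, mean of 4). Gzmb, Gzmk, Ifng, Ccl5, Pdcd1 and Havcr2 are higher in every TIL library, Tcf7, Ccr7 and S1pr1 are lower in every TIL library, and the groups overlap for Cd8a, Prf1 and Tox.

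Cytokine and chemokine genes were also higher in TILs: 14 of 21 tested were called higher (66.7%, against 10.9% of all tested genes) and none lower, with a median log2 difference of 2.63. For only 5 of these 14 was the mean in CD8 TILs above that in CD45+ CD4-CD8- TILs. Ifng, the gene of interferon gamma, was at 4.03, 4.9, 2.87 and 0.989 in TDLN libraries and 55.4, 118, 46.5 and 61.9 in TIL libraries, every TIL library being above the node (log2 fold change 4.48 ± 0.49 (SE), adjusted p = 0.000211). Ccl5, a chemokine of effector and memory T cells, was at 88.4, 72.6, 54.2 and 68.9 and 874, 1229, 1451 and 1707 (log2 fold change 4.23 ± 0.27 (SE), adjusted p = 1.69e-05). Ccl5 and Ifng averaged 219 and 7.13 in CD45+ TILs, below the CD8 TILs. Ccl3 and Ccl4, inflammatory chemokines that attract monocytes and T cells, were at 7.94, 296, 120 and 184 and at 45.4, 380, 281 and 347 in TIL libraries 1 to 4, against at most 1.31 and 9.1 in the node, and TIL library 1 was lowest for both. Csf2 (GM-CSF) and Il10 had at most 3 counts in any TDLN library and were at least 39.6-fold and 31.4-fold higher in TILs, with the highest value of each in TIL library 4. Ccl1 was at 0.611, 15.4, 17.9 and 23.7 in TIL libraries (log2 fold change 6.04 ± 1.04 (SE), adjusted p = 0.00254). Ccl9 was at 44.1 to 113 in TILs against 0.284 to 0.718 in TDLNs, and its mean in CD45+ TILs was 1554. Tnf, in contrast, was at 12.7, 10.2, 15.6 and 8.77 in TDLN libraries and 15.3, 10.5, 22.3 and 24 in TIL libraries, with overlap (log2 fold change 0.61 ± 0.32 (SE), adjusted p = 0.208).

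Genes of the naive and stem-like state were lower in TILs. Of 24 tested, 17 were called lower (70.8%, against 5.01% of all tested genes) and none higher, with a median log2 difference of -1.26. With T-lineage scaling 8 were called lower and the median was -0.78. Tcf7, the factor of naive and stem-like T cells, was at 1399, 1181, 987 and 1238 normalized CPM in TDLN libraries 1 to 4 and at 651, 336, 546 and 400 in TIL libraries 1 to 4. All TIL values lay below all TDLN values (log2 fold change -1.29 ± 0.24 (SE), adjusted p = 0.0043), TIL library 1 being nearest to the node. With T-lineage scaling the difference fell inside the fold threshold (log2 fold change -0.80, adjusted p = 0.0221). Lef1, its relative, was at 698, 532, 531 and 864 and 250, 148, 227 and 231 (log2 fold change -1.59 ± 0.24 (SE), adjusted p = 0.00114). Ccr7 was at 5358, 3290, 2223 and 8812 in TDLN libraries and 1008, 386, 478 and 470 in TIL libraries (log2 fold change -3.03 ± 0.45 (SE), adjusted p = 0.00113). S1pr1 was at 848, 945, 902 and 1539 and 508, 241, 368 and 313 (log2 fold change -1.55 ± 0.29 (SE), adjusted p = 0.00385), without overlap, TDLN library 4 being highest. Igfbp4, Tdrp, Nsg2, Il6ra and Rapgef4 were lower by log2 values of -2.93, -2.48, -1.64, -1.58 and -1.47. Il7r, the receptor of the survival cytokine interleukin 7, did not follow: it was at 179, 307, 388 and 121 in TDLN libraries and 458, 170, 126 and 295 in TIL libraries, with TIL library 1 highest (log2 fold change 0.06 ± 0.45 (SE), adjusted p = 0.943). Slamf6, a marker of stem-like cells, was at 98.4 to 200 and 112 to 266 (log2 fold change 0.15 ± 0.31 (SE), adjusted p = 0.781).

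Inhibitory receptors showed 14 of 23 tested genes called higher (60.9%, against 10.9% of all tested genes) and none lower, with a median log2 difference of 1.87. Of these 14, 7 averaged more in CD8 TILs than in CD45+ TILs. Without both TIL library 1 and TDLN library 3, 14 were called higher and 3 lower of 22. Pdcd1, which encodes PD-1, was at 37.9, 19.7, 16.6 and 35.6 normalized CPM in TDLN libraries and 364, 1066, 394 and 419 in TIL libraries. Every TIL library was higher (log2 fold change 4.40 ± 0.44 (SE), adjusted p = 0.000125), and TIL library 2 held more than the other TIL libraries. Havcr2 (TIM-3) was at 1.36, 0.509, 1.39 and 0.185 and 16.9, 157, 49.1 and 50.2 (log2 fold change 6.29 ± 0.79 (SE), adjusted p = 0.00045), with the same library highest and TIL library 1 lowest. Entpd1 (CD39), which degrades extracellular ATP, and Cd244a were at 28.2, 132, 41.5 and 34.6 and at 12.9, 83, 15.3 and 20.8 in TIL libraries 1 to 4, with log2 fold changes of 5.0 and 5.32. Lag3 was at 5.85, 1.02, 1.48 and 1.42 in TDLN libraries and 7.5, 46.7, 17.9 and 8.6 in TIL libraries (log2 fold change 3.10 ± 0.71 (SE), adjusted p = 0.0122). Klrg1, a receptor of terminal effector cells, was at 0.114, 0.127, 0.383 and 0.309 and 24.5, 20.9, 51.9 and 49 (log2 fold change 7.22 ± 0.52 (SE), adjusted p = 1.97e-05), and its mean of 11.7 in CD45+ TILs was below every CD8 TIL library. Klrc1, which encodes NKG2A, rose by 4.71 on the log2 scale. Lilrb4a and Lilr4b, near-identical neighbours whose reads the counting may split, were higher by 5.35 and 6.08, and both averaged more in CD45+ TILs (916 and 1127) than in any CD8 library. Ctla4 was at 160, 99.9, 99 and 101 in TDLN libraries and 285, 156, 116 and 85.8 in TIL libraries, with overlap (log2 fold change 0.51 ± 0.34 (SE), adjusted p = 0.329).

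Of 18 costimulatory receptors and ligands, 6 were called higher (33.3%, against 10.9% of all tested genes) and none lower, with a median log2 difference of 0.50. The mean in CD8 TILs was above that in CD45+ TILs for 3 of the 6. Without both TIL library 1 and TDLN library 3, 6 were called higher and 2 lower. Tnfrsf9 (4-1BB) was at 101, 35.3, 29.2 and 71.6 in TDLN libraries and 114, 928, 170 and 237 in TIL libraries (log2 fold change 2.67 ± 0.65 (SE), adjusted p = 0.0157). TIL library 2 was several times above the others, and TIL library 1 lay just above the node. Tnfrsf4 (OX40) and its ligand Tnfsf4 were at 15.1, 94.3, 70.4 and 63.4 and at 2.05, 33, 20.4 and 30.8 in TIL libraries (log2 fold change 3.03 ± 0.57 (SE), adjusted p = 0.00407, and log2 fold change 4.42 ± 0.77 (SE), adjusted p = 0.00269). Slamf7, Tnfsf14 and Tnfrsf8 were higher by 2.42, 2.87 and 2.33 on the log2 scale. Cd28 and Cd27, which serve priming, were at 205 to 322 and 252 to 398 in TDLNs and at 178 to 371 and 226 to 254 in TILs, and did not pass the test.

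Of 33 effector and exhaustion transcription factors, 16 were called higher (48.5%, against 10.9% of all tested genes) and 3 lower (9.09%, against 5.01%), with a median log2 difference of 1.14. Mean levels in CD8 TILs exceeded those in CD45+ TILs for 7 of the 16. The lower calls were 0 with T-lineage scaling and without TIL library 2 or 3, and 1 without TDLN library 2 or 4 or TIL library 4. Tbx21, which encodes T-bet, was at 37.1, 39.6, 33.4 and 29.7 in TDLN libraries and 145, 131, 168 and 134 in TIL libraries (log2 fold change 2.07 ± 0.20 (SE), adjusted p = 0.000107), without overlap and with little spread within either tissue. Eomes, its relative in effector and memory cells, was at 25.6, 43, 37 and 22.6 and 53.8, 128, 104 and 64.2 (log2 fold change 1.46 ± 0.34 (SE), adjusted p = 0.0126). Prdm1, which encodes Blimp-1, a repressor of the memory program, was at 1.48, 3.44, 6.65 and 1.17 and 27, 60, 31.9 and 22 (log2 fold change 3.44 ± 0.58 (SE), adjusted p = 0.00236). Zeb2, of terminal effector cells, was at 1.25, 1.72, 3.35 and 1.36 and 24.6, 43.8, 27.5 and 42.6 (log2 fold change 4.15 ± 0.41 (SE), adjusted p = 0.000118), and its mean in CD45+ TILs was 296. Bhlhe40, Zbtb32, Rora, Ikzf2, Irf8 and Batf3 were higher by 3.24, 3.01, 2.65, 2.58, 2.41 and 2.76 on the log2 scale. Tox did not pass the test. It was at 89.7, 75.4, 70.1 and 70.7 in TDLN libraries and 54.3, 333, 140 and 91.4 in TIL libraries (log2 fold change 1.05 ± 0.46 (SE), adjusted p = 0.131), so that TIL library 2 lay far above the node and TIL library 1 below it. Without TIL library 1 it was called higher (log2 fold change 1.34, adjusted p = 0.0328).

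Receptors named for NK cells, which activated CD8+ T cells also carry, were called higher for 15 of 19 tested genes (78.9%, against 10.9% of all tested genes), none being lower, with a median log2 difference of 3.61. Of these 15, 9 averaged more in CD8 TILs than in CD45+ TILs. Klrk1, which encodes the activating receptor NKG2D, was at 4.09, 9.1, 8.66 and 2.47 in TDLN libraries and 219, 215, 103 and 296 in TIL libraries (log2 fold change 5.08 ± 0.51 (SE), adjusted p = 0.000118). Klrc2, a member of the same gene cluster, was at 1.65, 2.04, 2.49 and 1.85 and 45.4, 23.9, 20.9 and 48.3 (log2 fold change 4.10 ± 0.37 (SE), adjusted p = 6.22e-05). Klra5 had at most 3 counts in any TDLN library and was at 6.22, 5.02, 2.78 and 9.56 in TIL libraries, at least 34.2-fold higher. Reads of Klra and Klrc genes can be split among near-identical copies. The signaling adaptors Fcer1g and Tyrobp were higher by 5.81 and 5.26, with means in CD45+ TILs (1724 and 1751) above every CD8 library. Ncr1, which defines NK cells, was at 0.0568, 0.0636, 0.287 and 0.185 in TDLN libraries and 3.67, 2.4, 2.02 and 2.17 in TIL libraries, against a mean of 64.3 in CD45+ TILs. Klrb1c, the NK1.1 antigen, was at 14.7, 7.69, 16.6 and 20.6 in TIL libraries and averaged 59.4 in CD45+ TILs. The sum of the NK list, which includes Gzma and Eomes, was 29.5 to 51.1 in TDLNs and 219 to 498 in TILs (exact permutation p = 0.0286), and the part of NK cell RNA in these differences was not tested.

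**Figure D3:**
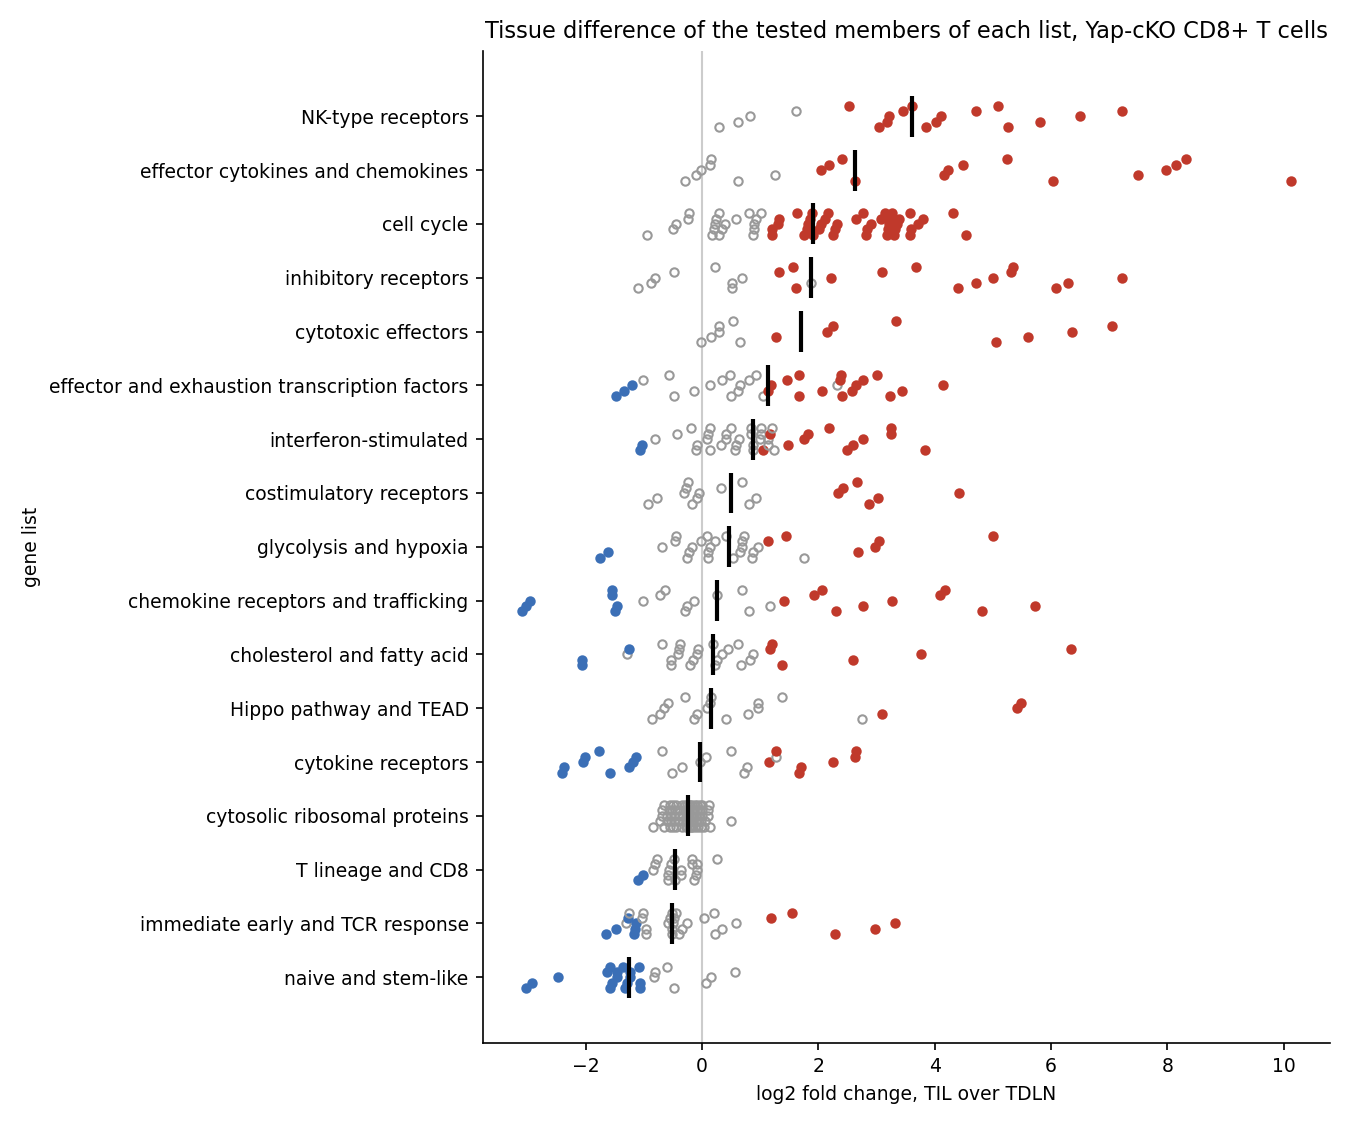
Log2 fold change of TILs over TDLNs for every tested member of 17 gene lists (points; filled red where called higher, filled blue where called lower, open grey otherwise; black bar, median of the list). Cytotoxic, cytokine, inhibitory receptor, NK-type receptor and cell cycle lists lie mostly to the right of 0, the naive and stem-like list to the left, and the ribosomal protein list close to 0.

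Receptors for migration changed in both directions: of 27 tested, 10 were called higher (37%, against 10.9% of all tested genes) and 7 lower (25.9%, against 5.01%). Cxcr3, which guides effector cells to interferon-induced chemokines, was at 88.8, 69.8, 32.7 and 62.7 in TDLN libraries and 214, 154, 364 and 309 in TIL libraries (log2 fold change 2.07 ± 0.33 (SE), adjusted p = 0.0017). Cx3cr1, Itga1 and Ccr2 were higher by 5.72, 4.82 and 4.18, and Ccr2 averaged 1192 in CD45+ TILs. Ccr8 was at 5.22, 74.6, 12.4 and 18.4 in TIL libraries and 5.85, 2.1, 1.39 and 2.59 in TDLN libraries, the call resting on overlapping groups in which TIL library 2 was highest (log2 fold change 3.27 ± 0.77 (SE), adjusted p = 0.0134). Itgae, the alpha chain of CD103, which binds E-cadherin, was lower in TILs: it was at 434, 227, 207 and 280 in TDLN libraries and 65.8, 26.9, 32 and 19.5 in TIL libraries (log2 fold change -2.95 ± 0.39 (SE), adjusted p = 0.00058). Ccr9, a receptor of gut-homing and recent thymic emigrant cells, was at 94.5, 134, 178 and 94.2 and 11.6, 19.5, 12.9 and 14.4 (log2 fold change -3.10 ± 0.31 (SE), adjusted p = 0.00012). Cd69 was at 127 to 430 in TDLNs and 120 to 266 in TILs and did not pass the test (log2 fold change -0.73 ± 0.46 (SE), adjusted p = 0.297).

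Cytokine receptors were split likewise, 7 of 25 being called higher (28%, against 10.9% of all tested genes) and 9 lower (36%, against 5.01%), with a median log2 difference of -0.03. With T-lineage scaling 9 were higher and 4 lower and the median was 0.43. Il12rb2 and Il18rap, signaling chains of the receptors for interleukins 12 and 18, were at 4.03, 4.33, 5.74 and 10.1 and 19.3, 39.3, 35.8 and 16.5 in TDLN libraries and at 69.6, 17.2, 18.9 and 44.6 and 173, 92.7, 89.4 and 178 in TIL libraries. Neither overlapped between tissues (log2 fold change 2.65 ± 0.49 (SE), adjusted p = 0.00388, and log2 fold change 2.25 ± 0.37 (SE), adjusted p = 0.00202). Il10ra was higher by 2.63. Ifngr2, a chain of the interferon gamma receptor, was at 179, 212, 213 and 327 in TDLN libraries and 55.1, 38.5, 40.9 and 42.5 in TIL libraries, all TIL values being lower (log2 fold change -2.38 ± 0.25 (SE), adjusted p = 0.000146). Tgfbr3, Il4ra, Il6st and Il21r were lower by log2 values of -2.40, -2.05, -2.01 and -1.77. Il2ra, the activation-induced alpha chain of the interleukin 2 receptor, was at 2.72 to 7.55 and 10.5 to 20.5 (log2 fold change 1.70 ± 0.38 (SE), adjusted p = 0.0108).

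Cell cycle genes were the list with the most calls by number: 41 of 61 tested were higher in TILs (67.2%, against 10.9% of all tested genes), none was lower, and the median log2 difference was 1.90. By share several lists had more, among them macrophage genes (100% higher), NK-type receptors (78.9% higher) and naive and stem-like genes (70.8% lower). Without both TIL library 1 and TDLN library 3, 1 cell cycle gene was called lower. The summed level of the cell cycle list overlapped between tissues (4382 to 6501 in TDLNs and 5534 to 6516 in TILs, exact permutation p = 0.429). For 38 of the 41, the mean level in CD8 TILs was above that in CD45+ TILs. The same was true of 8 of the 10 called melanoma genes, so this comparison cannot separate melanoma RNA from that of CD8 cells. In CD8 TILs of WT mice, which held more melanoma RNA, the cell cycle list summed to 6472 to 8227. The part of melanoma RNA in these differences was not tested. Mki67, which encodes the proliferation marker Ki-67, was at 1.59, 0.891, 2.92 and 0.927 normalized CPM in TDLN libraries and 18.2, 43.7, 9.6 and 57.7 in TIL libraries (log2 fold change 4.32 ± 0.63 (SE), adjusted p = 0.00102). All TIL libraries were above the node, with TIL library 3 nearest to it. Bub1, of the spindle checkpoint, was at 0.511, 1.4, 0.335 and 0.0 and 4.44, 19.8, 11.6 and 16.1 (log2 fold change 4.54 ± 0.84 (SE), adjusted p = 0.00385). Ube2c, Cdkn3, Nusap1, Tpx2, Cenpe and Cenpf, which act in mitosis, were higher by 3.80, 3.71, 3.60, 3.58, 3.57 and 3.39, with TIL library 1 lowest among TIL libraries for each but Cenpe. Pcna and Mcm2, which act in DNA replication, were at 180 to 327 and 68.8 to 208 in TDLNs and at 170 to 211 and 114 to 227 in TILs and did not pass the test. Promoters of mitotic genes are known to combine CCAAT boxes with the cell cycle homology region (CHR), and the 250 bases before the RefSeq start are shown for Mki67 (GRCm38.p6, chr7:135716380-135716629, minus strand) and Cdkn3 (chr14:46760291-46760540, plus strand), with CCAAT and TTTGAA on either strand in capitals. Of the 8 genes named above, these 2 were chosen after their sequences were seen, as windows that hold both motifs and overlap no annotated gene.
Mki67: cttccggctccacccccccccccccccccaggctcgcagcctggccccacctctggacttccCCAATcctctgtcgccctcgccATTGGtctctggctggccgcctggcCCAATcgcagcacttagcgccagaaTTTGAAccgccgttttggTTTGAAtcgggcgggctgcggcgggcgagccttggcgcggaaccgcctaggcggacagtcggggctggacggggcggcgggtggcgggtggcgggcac
Cdkn3: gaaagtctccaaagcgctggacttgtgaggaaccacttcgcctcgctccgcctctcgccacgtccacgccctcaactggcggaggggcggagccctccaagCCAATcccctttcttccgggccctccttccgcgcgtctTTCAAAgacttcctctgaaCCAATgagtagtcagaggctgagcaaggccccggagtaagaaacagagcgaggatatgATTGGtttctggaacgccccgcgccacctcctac
The Mki67 window held 3 CCAAT and 2 TTTGAA matches, and the Cdkn3 window 3 and 1. Both motifs occurred together in 12 of the 34 called cell cycle genes with a listed promoter (35.3%), in 13 of 52 tested ones (25%), in 4.29% of 9926 tested genes and in 5.73% of all 27025 RefSeq genes. CCAAT alone was in 34.5% of all windows and TTTGAA alone in 16.3%.

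Of 30 genes of glycolysis and the hypoxia response, 6 were called higher (20%, against 10.9% of all tested genes) and 2 lower (6.67%, against 5.01%), with a median log2 difference of 0.47. Only 1 of the 6 averaged more in CD8 TILs than in CD45+ TILs. With T-lineage scaling 15 were called higher and the median was 1.01, and 4 to 9 were called higher as each library was left out. Car9 and Bnip3, which respond to hypoxia, were at 2.0, 7.3, 55.9 and 20.2 and at 24.8, 63.3, 135 and 105 in TIL libraries 1 to 4, with TIL library 3 highest and TIL library 1 lowest for both (log2 fold change 5.01 ± 0.90 (SE), adjusted p = 0.00327, and log2 fold change 3.05 ± 0.44 (SE), adjusted p = 0.000996). The same order, with library 3 highest and library 1 lowest, was seen for the sum of melanoma genes. Tpi1 and Aldoc, enzymes of glycolysis, were higher by 2.68 and 2.98, and Hk2 and Pgk1 by 1.45 and 1.14. Ldha was at 943 to 2587 in TDLNs and 1370 to 2343 in TILs and did not pass the test (log2 fold change 0.09 ± 0.30 (SE), adjusted p = 0.876). Slc16a1, a lactate transporter, and Pdk1, which restrains pyruvate oxidation, were lower: Slc16a1 was at 468, 246, 278 and 372 in TDLN libraries and 163, 69, 92.7 and 70.7 in TIL libraries (log2 fold change -1.75 ± 0.32 (SE), adjusted p = 0.00328), and Pdk1 changed by -1.61. Of 29 genes of cholesterol and fatty acid metabolism, 6 were called higher (20.7%, against 10.9% of all tested genes) and 3 lower (10.3%, against 5.01%). None of these 6 had a larger mean in CD8 TILs than in CD45+ TILs. The lipid receptor Cd36 was at 0.341, 0.382, 0.527 and 0.309 in TDLN libraries and 24.1, 28.6, 32.6 and 43.8 in TIL libraries (log2 fold change 6.34 ± 0.35 (SE), adjusted p = 1.02e-05), and Lpl and Fabp5 were higher by 3.77 and 2.59. Means in CD45+ TILs were 212 for Cd36, 432 for Lpl and 563 for Fabp5, above every CD8 library. Scd1, which desaturates fatty acids, was at 16.6, 22.2, 18.7 and 10.5 and 2.05, 3.6, 7.63 and 2.71 (log2 fold change -2.07 ± 0.45 (SE), adjusted p = 0.00851), and Abcg1 and Abca1, which export cholesterol, were lower by log2 values of -2.06 and -1.26.

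Interferon-stimulated genes were called higher for 12 of 41 (29.3%, against 10.9% of all tested genes) and lower for 2 (4.88%, against 5.01%), with a median log2 difference of 0.87. Only 3 of the 12 averaged more in CD8 TILs than in CD45+ TILs. With T-lineage scaling 20 were higher and none lower, and the 2 lower calls were also lost with length offsets and without TIL library 2, 3 or 4. The summed level of the list overlapped between tissues, at 3132 to 4058 in TDLNs and 3062 to 5695 in TILs (exact permutation p = 0.971). Rsad2, an antiviral enzyme, was at 2.78, 3.63, 3.64 and 1.73 in TDLN libraries and 53.5, 22.3, 15.5 and 20.3 in TIL libraries (log2 fold change 3.25 ± 0.45 (SE), adjusted p = 0.000826), and TIL library 1 was highest. The same library was highest for Ifit3, at 167, 63.7, 78.7 and 75.7 in TIL libraries (log2 fold change 3.25 ± 0.43 (SE), adjusted p = 0.000586). Ifit1, Mx1, Isg20 and Ly6a were higher by 2.76, 2.49, 1.83 and 2.59. Ifit3 and Ifit3b are near-identical neighbours, so their counts may be split. Genes of the early response to T cell receptor signaling did not move together: 5 of 33 were called higher (15.2%, against 10.9% of all tested genes) and 6 lower (18.2%, against 5.01%), with a median of -0.52. With T-lineage scaling none was called lower and the median was -0.02. The lower calls were 2 without TDLN library 4, TIL library 2 or TIL library 3, 3 without TIL library 4 and 10 without TIL library 1. Without both TIL library 1 and TDLN library 3 they were 11, and the median was -0.91. Jun was at 318, 330, 277 and 328 in TDLN libraries and 125, 140, 164 and 119 in TIL libraries (log2 fold change -1.17 ± 0.19 (SE), adjusted p = 0.0019), lower without overlap, and inside the fold threshold with T-lineage scaling (log2 fold change -0.70, adjusted p = 0.0219). Junb, Egr3 and Nr4a3 were lower by log2 values of -1.28, -1.65 and -1.48, whereas Cish, an inhibitor of T cell receptor signaling, Dusp4, Atf3 and Spry2 were higher by 1.54, 1.18, 2.98 and 3.32. None of 77 cytosolic ribosomal protein genes was called in either direction. Their median was -0.24, and 0.28 with T-lineage scaling, where 1 was called higher. Without both TIL library 1 and TDLN library 3, 1 was called lower.

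Of 19 tested genes of the Hippo pathway and of TEAD-dependent transcription, 3 were called higher (15.8%, a share near the 10.9% of all tested genes) and none lower. The higher calls numbered 1 without TDLN library 1 or 4 and 0 without TIL library 2, 3 or 4, where Wwtr1 and Ccn1 did not reach the count filter, and without both TIL library 1 and TDLN library 3 there were 3 higher and 3 lower of 16. Wwtr1, which encodes TAZ, the paralog of Yap, was at 0.0, 0.0, 0.287 and 0.0618 in TDLN libraries and 0.611, 1.91, 9.55 and 5.41 in TIL libraries (log2 fold change 5.42 ± 1.12 (SE), adjusted p = 0.00717). Ccn1, a target of Yap and TAZ, was at 0.114, 0.0, 0.574 and 0.0 and 0.222, 1.2, 25.7 and 7.58 (log2 fold change 5.48 ± 1.45 (SE), adjusted p = 0.0226), and Amotl1 was at 0.0, 0.318, 1.1 and 0.309 and 1.06, 2.56, 8.39 and 3.61 (log2 fold change 3.10 ± 0.94 (SE), adjusted p = 0.0396). Amotl1 was not called with length offsets (log2 fold change 1.66, adjusted p = 0.369), nor without any 1 of TDLN libraries 1, 2 and 4 or TIL libraries 2, 3 and 4 (adjusted p = 0.0547 to 0.112), and Ccn1 was not called without TDLN library 1 or 4 (adjusted p = 0.0631 and 0.0551). All 3 were highest in TIL library 3 and lowest in TIL library 1, as was the melanoma sum, whose part in these differences was not tested. Stk4, the kinase MST1 at the head of the pathway, was at 606, 618, 636 and 601 in TDLN libraries and 483, 267, 305 and 284 in TIL libraries, lower without overlap but within the fold threshold (log2 fold change -0.86 ± 0.23 (SE), adjusted p = 0.0237), and past it without TIL library 1 (log2 fold change -1.08, adjusted p = 0.00335). Tead1, Tead3 and Tead4 stayed at or below 1.44 normalized CPM in all 8 libraries and were not tested.

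The tissue difference was then compared with that of WT CD8+ T cells by an interaction term over 16 libraries. Of 14927 genes tested, 63 (0.422%) were called, and in all 63 the difference was more negative in Yap-cKO cells. For 62 of the 63, WT TILs had the highest mean of the 4 groups, and 17 of them were also called between tissues in Yap-cKO cells. The 10 with the largest interaction were Ccn2, Grb10, Cxcl12, Vwa1, S1pr3, Pdgfrb, Timp3, Cd34, Flt1 and Col18a1, several of which mark endothelial cells, pericytes or fibroblasts. Ccn2, a matricellular target of Yap and TAZ, averaged 0.19 in Yap-cKO TDLNs and 0.489 in Yap-cKO TILs, against 0.0179 in WT TDLNs and 103 (25.4 to 282) in WT TILs (interaction -10.84 ± 2.02 on the log2 scale, adjusted p = 0.04). Flt1, the endothelial receptor VEGFR1, averaged 1.28 and 1.55 in Yap-cKO TDLNs and TILs and 1.15 and 125 (10.2 to 357) in WT (interaction -6.49 ± 1.11, adjusted p = 0.0298). With the replicate block no gene was called (edgeR, 1926 genes at an unadjusted p under 0.05), so that Ccn2 and Flt1 lost their calls, and with T-lineage scaling 2686 were called. The number of calls also depended on single libraries. It was 0 when any of the 4 WT TDLN libraries, Yap-cKO TDLN library 3 or Yap-cKO TIL library 1, 2 or 4 was left out (edgeR, 1879 to 2549 genes at an unadjusted p under 0.05, and 719 calls by DESeq2 on all 16 libraries), 414 without WT TIL library 3, 350 without Yap-cKO TIL library 3 and 170 without WT TIL library 4. It was 3 to 24 without any of the others. Endothelial genes summed to 177 to 2629 in WT TILs and 68.1 to 98.2 in Yap-cKO TILs. Of the genes described above, the interaction was not past the threshold for Gzmb (0.33 ± 0.56, adjusted p = 0.827), Pdcd1 (0.89 ± 0.66, adjusted p = 0.545), Ifng (-0.09 ± 0.88, adjusted p = 0.98) or Tcf7 (1.12 ± 0.48, adjusted p = 0.274). The tissue differences of Gzmb in WT and Yap-cKO cells were 5.23 and 5.61, those of Pdcd1 3.46 and 4.40, those of Ifng 4.54 and 4.48, and those of Tcf7 -2.44 and -1.29, each fitted in its own 8 libraries. WT TIL libraries also held the larger melanoma sums (4647 to 17531), whose part in these interactions was not tested.

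A second interaction asked whether the tissue difference in Yap-cKO CD8+ T cells differed from that in Yap-cKO CD4+ T cells of the same tissues. Of 14796 genes tested, 15 (0.101%) were called with a difference more positive in CD8+ cells and 14 (0.0946%) with one more negative. The total of 29 became 50 without CD4 TIL library 3 and 19 without CD8 TDLN library 4. By the study's methods both T cell types were sorted from each tumor, whereas this fit took the 16 libraries as independent. With the replicate number as a block, 31 genes were called, and 17 of the 19 genes named here kept their call. Plac8 averaged 70.4 ± 18.8 normalized CPM in CD8 TDLNs and 122 ± 23.8 in CD8 TILs (SD, n = 4), against 2.84 (0.982 to 5.14) and 113 (67 to 151) in CD4 cells. Its ranges in TILs overlapped, and the CD4 cells of the node were the low group (interaction -4.44 ± 0.57, adjusted p = 0.00728). Nkg7 showed the same shape, with 753 ± 212 and 1776 ± 454 in CD8 TDLNs and TILs and 14.1 (5.84 to 32.7) and 650 (295 to 1279) in CD4 cells (interaction -4.16 ± 0.71, adjusted p = 0.0146). So did Ly6c2, a surface protein of memory CD8+ T cells, with 710 and 948 in CD8 cells and 9.5 and 173 in CD4 cells, and the vesicle gene Sytl3 (-3.28). Itgae fell from 287 ± 103 to 36.1 ± 20.5 in CD8 cells and stood at 51.3 (24.3 to 78) and 80.1 (45.1 to 143) in CD4 cells, where the ranges overlapped and the difference did not pass the test (edgeR, log2 fold change 0.56, adjusted p = 0.447; interaction -3.58 ± 0.69, adjusted p = 0.0364). Ggt1 fell from 75 ± 22.3 to 11.6 ± 5.3 in CD8 cells and stood at 9.69 and 13.3 in CD4 cells (-3.07 ± 0.51). Matk, Arrdc4 and Podnl1 were also among the 10 most negative. In the positive direction, Fasl went from 16.6 ± 6.72 to 167 ± 27.2 in CD8 cells and stood at 62 (32.9 to 81.3) and 82.8 (51 to 120) in CD4 cells, with overlap (interaction 2.95 ± 0.50, adjusted p = 0.013). Ly6c1 and Itm2a were highest in CD4 cells of the node, at means of 141 and 449, and stood lower in CD4 TILs, at 19.6 and 62.8, while CD8 cells held 1.04 and 1.52 of Ly6c1 and 162 and 99.9 of Itm2a in TDLNs and TILs. Pdlim4 and Cers6 differed by -3.48 and -2.90 between the tissues in CD4 cells and by 0.43 and 0.46 in CD8 cells (log2), and the cholesterol exporter Abca1 by -3.38 and -1.26. The remaining 4 were F13a1, Itgam, Lgmn and 1700025G04Rik. F13a1, Itgam and Lgmn are expressed by macrophages, their means in CD45+ TILs were 1275, 1195 and 1645, and the sum of macrophage genes was 449 to 1193 in CD4 TILs against 1110 to 2827 in CD8 TILs, with overlap. The part of macrophage RNA in these interactions was not tested.

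**Figure D4:**
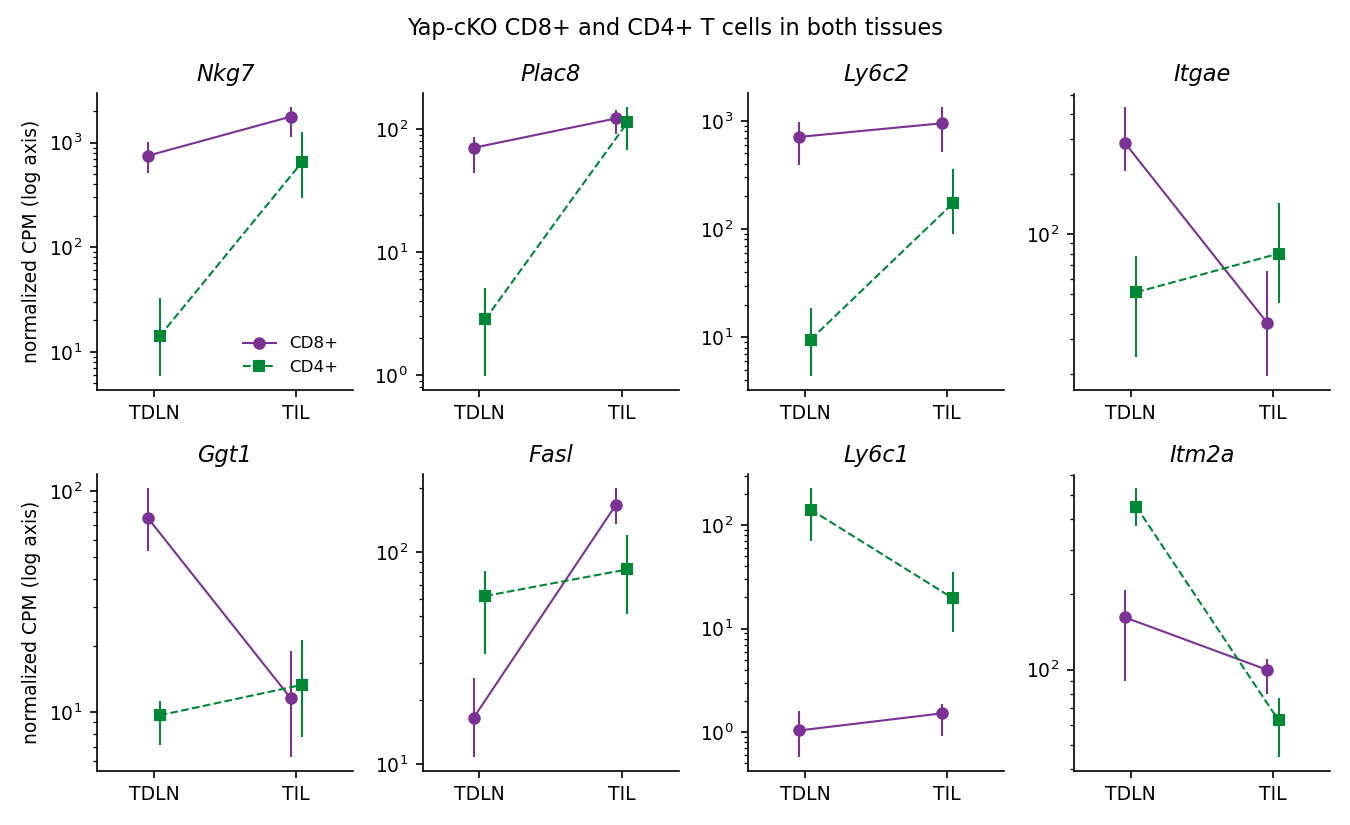
Mean normalized CPM (log axis) in TDLN and TIL libraries of Yap-cKO CD8+ (circles, solid line) and CD4+ (squares, dashed line) T cells for 8 genes with a called tissue by cell type interaction (vertical lines, lowest to highest of 4 libraries; lines joining tissues only guide the eye). Itgae goes from 287 to 36.1 in CD8+ cells, while its CD4+ ranges overlap, and Fasl goes from 16.6 to 167 in CD8+ cells.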

How the data were processed

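RNA of live-sorted cells was sequenced with SMART-Seq v4 libraries. According to the submitters' processing notes, the authors used FastQC, Trimmomatic and Salmon 0.9.1 with mm10, and deposited for each transcript an expected count, TPM and an effective length. Each expected count, as deposited by the authors, is the number of reads Salmon assigned to a transcript, without normalization. The deposited TPM values, scaled by the authors for length and depth, and the effective lengths served only the length-offset alternative.

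Of 112092 transcripts, 111787 were matched to GENCODE M21 identifiers and their counts summed over 34932 genes, then rounded to whole numbers. Unmatched transcripts held 0.0795 to 0.177% of the counts of the 8 libraries. Genes reaching 10 counts in 4 or more libraries were tested with edgeR 4.0.16 (quasi-likelihood, TMM, R 4.3.3, limma 3.58.1) in a fit of the 8 libraries, or of 16 for each interaction. P-values were Benjamini-Hochberg adjusted over all tested genes, and a gene was called at an adjusted p under 0.05 with an absolute log2 fold change above 1. Each SE was derived from the test, as the absolute log2 fold change divided by the square root of its quasi-likelihood F statistic. Totals of 14566898 to 19804040 counts per library set the precision, and floors of 3 counts cover counting error only. DESeq2 1.42.0 and the other alternatives are given at the end. Sums of markers were compared by exact two-sided permutation tests of 4 against 4 libraries (smallest p 0.0286). The fits were tested on simulated data.

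Named genes were Yap1, Cd8a, Gzmb and Tcf7, up to 8 called genes per list with the largest change beside members that define the list, 10 per direction among protein-coding genes of at least 20 normalized CPM without overlap between tissues, and 10 per direction of each interaction. A few genes that met these rules are not reported here. The gene lists, their defining members and the comparison itself were chosen with earlier results of these data known. The labels tie no tumor library to a node library of the same mouse. Reads of near-identical or overlapping genes may be split by the counting, and strand use is not given in the sources used here. Promoter sequence is from RefSeq (GRCm38.p6).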

Additional observations from a re-analysis of the deposited data

Results flagged for a closer look

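In 25 of 327 groups of 4 libraries tested, 1 library lay far from the other 3 by the gap to its nearest neighbour over the range of the group (Dixon's test at its 95% critical value). Chance gives about 1 in 20. Of the 25, 8 were in TIL library 1 and 5 in TIL library 2. TIL library 1 held the highest normalized CPM of its tissue for Ccr7 (1008), Cd4 (5.5), Ifit3 (167), Il21r (510), Il4ra (615), Il6ra (38) and Tdrp (86.2) and the lowest normalized CPM of its tissue for Ube2c (8.55). TIL library 2 held the highest normalized CPM of its tissue for Cd244a (83), Cd8a (936), Entpd1 (132), Pdcd1 (1066) and Tnfrsf9 (928). TIL library 4 held the highest normalized CPM of its tissue for Gzma (343) and Il10 (13.2). TDLN library 1 held the highest normalized CPM of its tissue for Ctla4 (160) and Lag3 (5.85). TDLN library 2 held the highest normalized CPM of its tissue for Klrc1 (9.55). TDLN library 3 held the highest normalized CPM of its tissue for Lpl (7.8), Tyrp1 (0.287) and the sum of neutrophil genes (6.46). TDLN library 4 held the highest normalized CPM of its tissue for S1pr1 (1539) and the lowest normalized CPM of its tissue for Bcl11b (249), Mx1 (4.26) and Pdk1 (240). 

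The tissue difference itself differed between groups, by the interaction term, for 10 genes named between genotypes and 19 between cell types. The log2 interactions of Yap-cKO against WT CD8+ T cells were Ccn2 (-10.84), Grb10 (-9.33), Cxcl12 (-8.31), Vwa1 (-7.27), S1pr3 (-7.21), Pdgfrb (-6.92), Timp3 (-6.89), Cd34 (-6.73), Flt1 (-6.49) and Col18a1 (-6.28). Those of CD8+ against CD4+ Yap-cKO T cells were F13a1 (4.72), Lgmn (4.04), Pdlim4 (3.85), Itgam (3.82), Ly6c1 (3.51), Cers6 (3.35), Fasl (2.95), 1700025G04Rik (2.38), Itm2a (2.21), Abca1 (2.09), Plac8 (-4.44), Nkg7 (-4.16), Ly6c2 (-3.65), Itgae (-3.58), Sytl3 (-3.28), Arrdc4 (-3.25), Podnl1 (-3.17), Ggt1 (-3.07) and Matk (-2.88).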

How the results depend on the processing

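Of 160 named genes, 159 kept direction and call between tissues with DESeq2, 158 with no count filter and 157 with average transcript length offsets. They numbered 153 with the replicate block, 138 with T-lineage scaling and 130 with glmTreat against a log2 fold change of 1. Where still tested, 16 lost their call without at least 1 library. Genes that then fell below the count filter are not among these 16. C5ar1 and Ccl1, for example, were not tested when any 1 TIL library was left out. The 2124 calls became 896 with glmTreat (792 higher, 104 lower) and 1698 with the replicate block (1193 and 505), and ranged from 1151 without TIL library 2 to 2582 without TDLN library 3 as each library was left out in turn. The filter of 10 counts in 4 libraries was kept there, so that without a TIL library 12755 to 12896 genes were tested, genes that reached 10 counts in tumors only being left out. Same-numbered libraries were not taken as paired: the correlations of their deviations were -0.09, 0.16, -0.47 and -0.15 for numbers 1 to 4, and 1 of 4 TIL libraries correlated best with its own number. The 63 calls of the genotype interaction became 719 with DESeq2, 449 with no count filter, 2686 with T-lineage scaling and 0 with the replicate block (edgeR, 1926 genes at an unadjusted p under 0.05), and ranged from 0 to 414 without 1 library. The 29 of the cell type interaction became 149 with DESeq2, 59 with no count filter, 41 with T-lineage scaling and 31 with the replicate block. They were 19 to 50 without 1 library. Medians of gene lists turned for T lineage (0.04), cytosolic ribosomal proteins (0.28) and cytokine receptors (0.43) with T-lineage scaling, for cytokine receptors (0.20) and the Hippo list (-0.01) with length offsets, and for trafficking receptors with the replicate block (-0.01) and without both TIL library 1 and TDLN library 3 (-0.28). The T lineage list holds the 15 genes used for that scaling, so its median there was largely set by the scaling. The single genes whose direction turned had differences that were not called. With T-lineage scaling these were Cd27 0.17, Cd28 0.33, Cd3e 0.05, Cd4 0.41, Cd8a 0.13, Pcna 0.25, Trac 0.35 and the genotype interactions of Gzmb (-0.49) and Pdcd1 (-0.02). With length offsets they were Cd28 0.00 and Cd4 0.24, and with the replicate block the genotype interaction of Ifng 0.48. Without TIL library 1 and TDLN library 3, chosen after seeing the data, Ctla4 was -0.01, Il7r -0.04, Ldha -0.05 and Sytl3 -0.07. Without 1 library the ranges were -0.35 to 0.07 for Cd28, -0.32 to 0.21 for Cd4, -0.34 to 0.41 for Il7r, -0.11 to 0.30 for Ldha, -0.04 to 0.45 for Mcm2, -0.09 to 0.33 for Slamf6, -0.44 to 0.96 for the Ifng interaction and, for medians, -0.10 to 0.21 for the cholesterol and fatty acid list, -0.34 to 0.06 for cytokine receptors and -0.10 to 0.77 for trafficking receptors. Without TMM, an alternative added after seeing the data, the ratio of TIL to TDLN marker sums was 0.795 for endothelial genes (exact permutation p = 0.114, against 0.0286) and 1.11 for fibroblast genes, which were not called. The cause of these changes was not tested. Genes near 3 counts in a tissue have only a bound on their fold.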

Other observations

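The V segments of the T cell receptor alpha chain were used less evenly in TILs, an observation made after the data were seen. The most used of 93 Trav segments took 4.13 to 4.63% of Trav counts in TDLN libraries and 7.03, 32, 7.73 and 5.73% in TIL libraries 1 to 4 (exact permutation test, two-sided, p = 0.0286). In TIL library 2 this was Trav3-3. The effective number of Trav segments was 62.9 to 65.0 in TDLNs and 56.4, 24.3, 50 and 55.2 in TILs (exact permutation p = 0.0286). For 22 Trbv segments it was 16.7 to 17.5 in TDLNs and 16.5, 14.3, 15.1 and 17.0 in TILs, with overlap (exact permutation p = 0.0571). The libraries held 5465 to 7510 Trav counts, and V segments share sequence, so that counts may be split among them. TIL library 2 was also the library with the highest Pdcd1, Havcr2, Tox, Entpd1 and Tnfrsf9.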
